A study of Mus musculus with 6 samples.

Results

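The 7 chemokine genes Ccl1, Ccl3, Ccl4, Ccl5, Xcl1, Cxcl9 and Cxcl10 were followed across 3 sorted groups of CD4+ CD44+ T cells, in which CD44 marks cells that have met antigen. All probe sets whose platform symbol was one of these names were taken, which gave 7 probe sets, 1 for each gene, of 23410 named probe sets on the array. The cells came from draining lymph nodes of male Bcl6_RFP reporter mice, aged 8 to 10 weeks, immunised with KLH/CFA, the protein antigen keyhole limpet haemocyanin emulsified with complete Freund's adjuvant. Every group shared this genotype, age, sex and immunisation, and there was no unimmunised or wild-type group. The groups were Cxcr5+Bcl6+ (both the follicle-homing receptor Cxcr5 and the red fluorescent reporter of Bcl6), Cxcr5+Bcl6- (the receptor without the reporter) and Cxcr5-Bcl6- (neither), with 2 arrays each. The labels do not say how the reporter was built, whether animals were pooled or whether cells were restimulated before RNA extraction. The series calls the 2 arrays of a group biological replicates, and p-values measure the spread between these samples. Arrays of a group correlated at 0.994 to 0.996 over all rows, and arrays of different groups at 0.970 to 0.991. Going by its title, the study asked about Bcl6 expression and the follicular helper program in living animals.

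Chemokines are small secreted proteins that attract leukocytes through G protein-coupled receptors. Activated effector T cells secrete Ccl3, Ccl4 and Ccl5, which attract T cells, monocytes and dendritic cells, and Xcl1, which acts on Xcr1 of cross-presenting dendritic cells. Ccl1 is the ligand of Ccr8, and Cxcl9 and Cxcl10 are interferon-induced ligands of Cxcr3, made mainly by myeloid and stromal cells and also by some activated lymphocytes. Follicular helper T cells, by contrast, are known for helping B cells inside follicles through contact and interleukin 21.

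All 7 chemokines were lower in Cxcr5+Bcl6+ cells than in either other group, by up to 25-fold for Ccl3 against Cxcr5+Bcl6- cells. Ccl4 fell by 1.87-fold and 1.96-fold to a dim level, and the level of Cxcl9 in Cxcr5+Bcl6+ cells was too dim for its fold to be ranked. Ccl3, Ccl1 and Xcl1 lay between 8.07 and 8.74 in Cxcr5+Bcl6+ cells, not far above the 95th percentile of smell and pheromone receptor genes there (7.73). Their folds are thus also measured against low levels. The 7 chemokines parted in the Cxcr5+Bcl6- group, which carries the follicular receptor but not the reporter. Ccl5, Xcl1 and Cxcl9 were already lower there than in Cxcr5-Bcl6- cells, Ccl1 was higher, and Ccl3, Ccl4 and Cxcl10 were not called different. In sorted bulk samples, fewer cells that make a chemokine and less of its RNA per cell cannot be told apart. Levels are log2 values of probe sets, so a difference of 1 is a 2-fold difference, and changes are given with the standard error of the limma fit and a Benjamini-Hochberg adjusted p over all named probe sets, called at 0.05.

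Promoter sequences are shown for the genes at the extremes of this pattern: Ccl3, which changed most, Ccl1, which was called higher at the step from Cxcr5-Bcl6- to Cxcr5+Bcl6- cells, and the neighbours Cxcl9 and Cxcl10, which differed there. Each line gives the 250 bases before the RefSeq start site (GRCm38.p6), written 5′ to 3′ on the gene's strand, with motif matches in capitals. Of the 7 genes, 5 had an entry in the promoter table. The missing entries are Ccl4 and Ccl5.
Ccl3 chr11:83649379-83649628 (- strand): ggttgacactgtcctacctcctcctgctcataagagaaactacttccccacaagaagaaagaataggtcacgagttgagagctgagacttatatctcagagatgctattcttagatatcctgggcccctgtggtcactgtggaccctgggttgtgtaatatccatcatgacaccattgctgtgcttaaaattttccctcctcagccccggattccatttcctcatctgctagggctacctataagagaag
Ccl1 chr11:82179813-82180062 (- strand): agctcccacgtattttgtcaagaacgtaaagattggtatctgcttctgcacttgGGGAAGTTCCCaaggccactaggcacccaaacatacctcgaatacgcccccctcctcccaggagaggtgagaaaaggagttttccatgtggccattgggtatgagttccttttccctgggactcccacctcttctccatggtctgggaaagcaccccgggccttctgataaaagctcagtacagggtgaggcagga
Cxcl9 chr5:92328080-92328329 (- strand): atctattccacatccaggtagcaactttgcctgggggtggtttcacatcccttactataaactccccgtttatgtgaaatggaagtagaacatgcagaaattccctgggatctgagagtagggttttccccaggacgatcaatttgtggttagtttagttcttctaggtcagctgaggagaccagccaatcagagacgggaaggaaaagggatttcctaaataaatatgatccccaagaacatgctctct
Cxcl10 chr5:92348890-92349139 (- strand): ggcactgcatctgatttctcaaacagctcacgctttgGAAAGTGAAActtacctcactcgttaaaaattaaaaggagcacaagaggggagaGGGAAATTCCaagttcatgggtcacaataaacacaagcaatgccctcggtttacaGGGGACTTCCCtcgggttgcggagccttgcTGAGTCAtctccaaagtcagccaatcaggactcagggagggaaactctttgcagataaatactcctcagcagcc
The motifs searched, on both strands, were the interferon response element (GAAA, any NN and GAAA in a row), the STAT element TTCNNNGAA, whose letters also cover the core that Bcl6 binds, the T-box element AGGTGTGA, the AP-1 element TGANTCA and the NF-kB consensus. Cxcl10 held the interferon element as GAAAGTGAAA from position -213 to -204, where -1 is the base before the start. It also held NF-kB matches at -159 to -150 (GGGAAATTCC) and in 2 overlapping frames from -104 to -94, and an AP-1 match at -74 to -68. Ccl1 held an NF-kB match in 2 overlapping frames from -196 to -186. The windows of Ccl3, Cxcl9 and Xcl1 held none of the 5 motifs in these spellings. Among 32851 RefSeq promoter windows of the same length, 2.98% held the interferon element, 7.02% the STAT element, 7.25% the NF-kB consensus, 1.12% the T-box element and 6.75% the AP-1 element. A match describes letters and does not show that a factor binds.

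**Figure D1:**
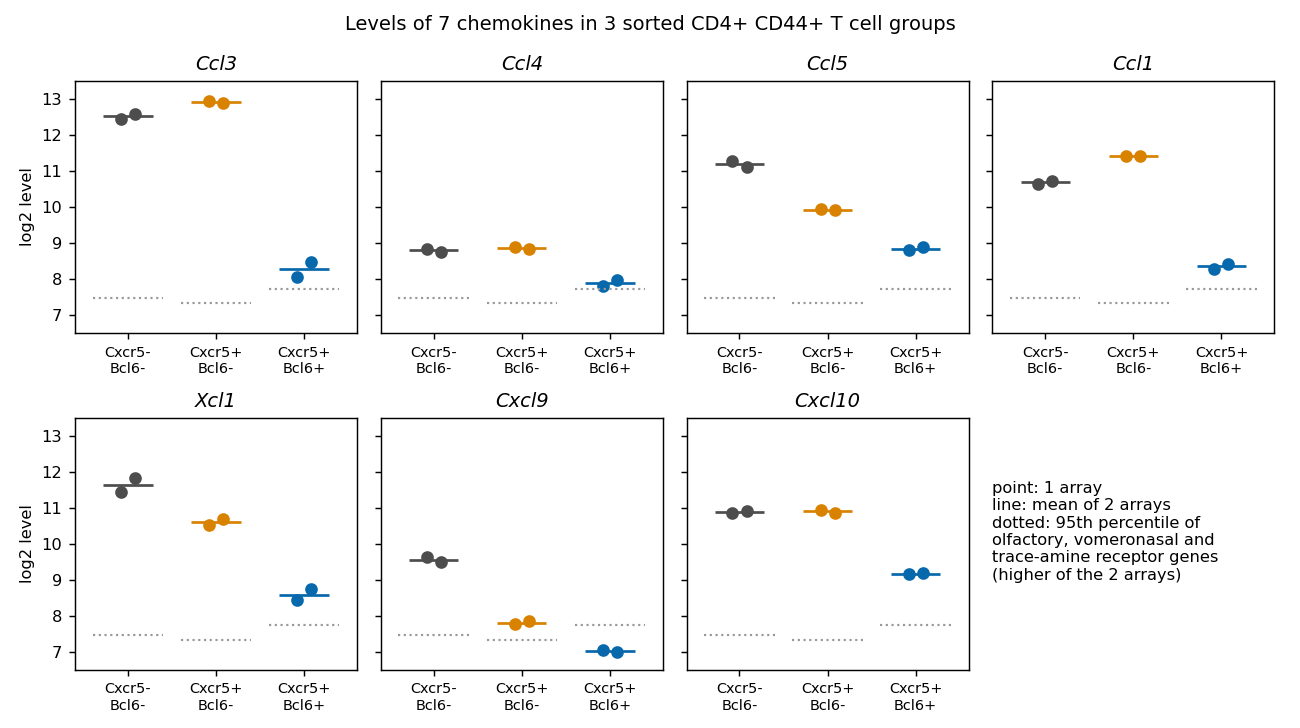
Log2 level (vertical axis) of each chemokine in the 3 sorted groups (horizontal axis), with a point for each array, a solid line at the mean of 2 arrays, and a dotted line at the 95th percentile of receptor genes of smell and pheromone sensing. Both Cxcr5+Bcl6+ arrays are the lowest in every panel, and Cxcl9 lies under the dotted line there, at 7.06 and 7.0.

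Set against Cxcr5-Bcl6- cells, Cxcr5+Bcl6+ cells had 7 of 7 chemokines called lower and 0 higher, where 17.7% and 17.6% of all named probe sets were. On both arrays, 7 of 7 lay under both arrays of the other group, as did 28.1% of probe sets. Their median change was -2.36, against 0.04 over 19938 genes. Between Cxcr5+Bcl6- and Cxcr5-Bcl6- cells, 3 of 7 were called lower and 1 higher, against 5.93% and 5.22% of probe sets, with a median of 0.02 (all genes -0.03). There 3 of 7 lay lower on both arrays, against 30.8% of probe sets. For Cxcr5+Bcl6+ against Cxcr5+Bcl6- cells, 7 of 7 were again lower and 0 higher, against 13.0% and 13.4% of probe sets, with a median of -1.73 (all genes 0.06). All 7 were lower on both arrays, as were 26.4% of probe sets. Calls over all probe sets in that last comparison were 3144 higher and 3041 lower, and 2074 higher and 3859 lower once each array was centred on its median. The 3 comparisons share arrays, so they are not independent, and the genes were chosen with results of these data known.

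**Figure D2:**
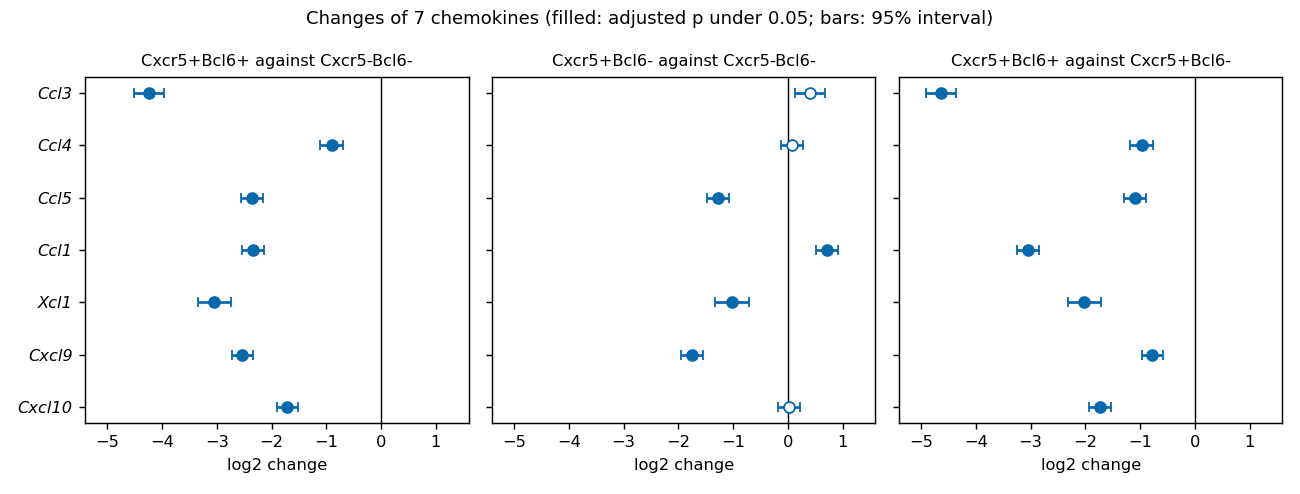
Log2 change (horizontal axis) of each chemokine in the 3 comparisons, with 95% intervals from the limma fit and filled points for calls at an adjusted p of 0.05. All points of the left and right panels lie below 0, whereas the middle panel runs from -1.76 for Cxcl9 to 0.72 for Ccl1.

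Ccl3 (probe set 10389231), also known as macrophage inflammatory protein 1-alpha, stood at 12.45 and 12.58 in Cxcr5-Bcl6- cells, at 12.95 and 12.89 in Cxcr5+Bcl6- cells and at 8.07 and 8.48 in Cxcr5+Bcl6+ cells. The 3 groups did not overlap, and the Cxcr5+Bcl6+ arrays lay far under the other 4. The level was lower by 4.24 (log2 change -4.24, SE 0.124, adjusted p = 1.47e-09) than in Cxcr5-Bcl6- cells, an 18.9-fold difference, and by 25-fold than in Cxcr5+Bcl6- cells (log2 change -4.65, SE 0.124, adjusted p = 8.69e-10). The 0.40 (SE 0.124) between the groups without the reporter was not called (adjusted p = 0.0631, 95% interval 0.13 to 0.67). It was called under 7 of 16 alternatives, which are not all separate. Omitting either Cxcr5+Bcl6+ array gives the same fit as using only the 4 arrays compared (adjusted p = 0.0217). Over alternatives that kept all 4 arrays of these groups, the adjusted p ranged from 0.0205 to 0.212.

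Ccl4 (probe set 10379721), which encodes the related macrophage inflammatory protein 1-beta and lies next to Ccl3 in the genome, read 8.83 and 8.76 in Cxcr5-Bcl6-, 8.89 and 8.84 in Cxcr5+Bcl6- and 7.81 and 7.98 in Cxcr5+Bcl6+ cells. The groups without the reporter lay close together, between 8.76 and 8.89, and the Cxcr5+Bcl6+ arrays were below them. Its fall was 1.87-fold against Cxcr5-Bcl6- cells (log2 change -0.90, SE 0.0936, adjusted p = 1.61e-05) and 1.96-fold against Cxcr5+Bcl6- cells (log2 change -0.97, SE 0.0936, adjusted p = 1.86e-05). The 95% interval between the groups without the reporter was -0.13 to 0.28 (adjusted p = 0.782). Ccl3 and Ccl4 moved in the same direction, with 95% intervals of the change against Cxcr5-Bcl6- cells of -4.52 to -3.97 and -1.11 to -0.69.

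Ccl5 (probe set 10389207), known as RANTES and stored by memory and effector T cells, fell in a graded way. It measured 11.28 and 11.12 in Cxcr5-Bcl6-, 9.94 and 9.91 in Cxcr5+Bcl6- and 8.80 and 8.88 in Cxcr5+Bcl6+ cells. No groups overlapped, and the Cxcr5+Bcl6- arrays lay in the middle. The step from Cxcr5-Bcl6- to Cxcr5+Bcl6- was -1.27 (SE 0.0925, adjusted p = 8.87e-06), or 2.42-fold, and the step from there to Cxcr5+Bcl6+ was -1.09 (SE 0.0925, adjusted p = 6.8e-06), or 2.13-fold. The contrast of Cxcr5+Bcl6- with the mean of the other groups, which tests whether these steps are unequal, was -0.09 (95% interval -0.27 to 0.08, adjusted p = 0.571). Ccl9 and Ccl6, chemokine genes next to Ccl5 on one side, stayed between 6.62 and 7.34 in all 6 arrays and were not called in any comparison. Both lay under the 95th percentile of receptor genes of smell and pheromone sensing in every group, so no course is read from them.

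Ccl1 (probe set 10389064), the ligand of Ccr8, read 10.64 and 10.73 in Cxcr5-Bcl6- cells, 11.41 on both Cxcr5+Bcl6- arrays, and 8.29 and 8.43 in Cxcr5+Bcl6+ cells. The order of the groups, highest in Cxcr5+Bcl6- and lowest in Cxcr5+Bcl6+, held without overlap. Cxcr5+Bcl6- cells had 1.65-fold more Ccl1 than cells without either marker (log2 change 0.72, SE 0.0915, adjusted p = 0.000389). Cxcr5+Bcl6+ cells had 5.03-fold less than Cxcr5-Bcl6- cells (log2 change -2.33, SE 0.0915, adjusted p = 1.13e-08) and 8.28-fold less than Cxcr5+Bcl6- cells (log2 change -3.05, SE 0.0915, adjusted p = 2.39e-09).

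Xcl1 (probe set 10359697), lymphotactin, had the widest array spread of the 7 chemokines in Cxcr5-Bcl6- cells, at 11.44 and 11.82. It read 10.53 and 10.69 in Cxcr5+Bcl6- and 8.43 and 8.74 in Cxcr5+Bcl6+ cells, again with no overlap. The change was -1.02 (SE 0.138, adjusted p = 0.000607) from Cxcr5-Bcl6- to Cxcr5+Bcl6- cells, -2.02 (SE 0.138, adjusted p = 1.17e-06) from there to Cxcr5+Bcl6+ cells, and -3.04 (SE 0.138, adjusted p = 3.08e-08) between the outer groups, an 8.24-fold difference. The test of unequal steps gave 0.50 (adjusted p = 0.0241), so the step at the reporter was the larger. That call ended without Cxcr5+Bcl6+ replicate 1 (adjusted p = 0.0933), without Cxcr5+Bcl6- replicate 2 (0.164), after renewed quantile normalisation (0.0665) and with all rows tested (0.138), where over the alternatives it ranged from 0.00407 to 0.164.

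Cxcl9 (probe set 10531407), a ligand of Cxcr3 induced by interferon gamma, read 9.62 and 9.50 in Cxcr5-Bcl6-, 7.77 and 7.84 in Cxcr5+Bcl6- and 7.06 and 7.0 in Cxcr5+Bcl6+ cells. The Cxcr5+Bcl6- arrays lay far under the Cxcr5-Bcl6- arrays and the Cxcr5+Bcl6+ arrays lower still. The first step was -1.76 (SE 0.0897, adjusted p = 8.07e-07), or 3.38-fold, the second -0.77 (SE 0.0897, adjusted p = 7.75e-05), or 1.71-fold, and the test of unequal steps gave -0.49 (adjusted p = 0.0019). In Cxcr5+Bcl6+ cells its level lay under the 95th percentile, 7.73 on both arrays, of 1192 genes of smell, pheromone and trace-amine receptors, taken here as genes that are off in T cells. The fall of 5.78-fold against Cxcr5-Bcl6- cells (log2 change -2.53, SE 0.0897, adjusted p = 5.26e-09) and the second step are therefore measured against a dim level, so both may be lower bounds, and the unequal-steps value rests on that second step. These receptor genes themselves had a median change of 0.22 in that comparison and 0.30 between the Cxcr5+ groups, opposite in sign to the chemokines.

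Cxcl10 (probe set 10531415), the other interferon-induced Cxcr3 ligand here and the neighbour of Cxcl9, followed another course. It read 10.86 and 10.92 in Cxcr5-Bcl6-, 10.95 and 10.86 in Cxcr5+Bcl6- and 9.16 and 9.18 in Cxcr5+Bcl6+ cells. The groups without the reporter overlapped and differed by 0.02 (95% interval -0.17 to 0.21, adjusted p = 0.952). Cxcr5+Bcl6+ cells had 3.28-fold less than Cxcr5-Bcl6- cells (log2 change -1.71, SE 0.0878, adjusted p = 6.97e-08) and 3.33-fold less than Cxcr5+Bcl6- cells (log2 change -1.73, SE 0.0878, adjusted p = 1.51e-07). Cxcl11, the remaining interferon-induced ligand of Cxcr3, lay between 7.11 and 7.45 on all 6 arrays and was not called in any comparison. Its means were at or under the receptor percentile in every group, so no course is read from it.

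The contrast of Cxcr5+Bcl6- with the mean of the other groups sorted the chemokines by where they fell. It was positive, meaning a larger fall at the reporter, for 5 of 7 chemokines (4.16% of probe sets) and negative for 1 (4.08%). The values were 2.52 for Ccl3 (adjusted p = 1.55e-07), 1.89 for Ccl1 (adjusted p = 1.46e-07), 0.88 for Cxcl10 (adjusted p = 2.34e-05), 0.52 for Ccl4 (adjusted p = 0.00167) and 0.50 for Xcl1, against -0.49 for Cxcl9, with its dim level in Cxcr5+Bcl6+ cells. Calls over all probe sets for this contrast were 974 higher and 954 lower, and 1246 higher and 679 lower once arrays were centred.

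The label of these genes as products of effector T cells was set against cell type markers. T cell markers were bright in every group. Cd3e, a chain of the T cell receptor complex, ranged from 13.29 to 13.59. The summed linear level of 10 measured T cell markers of 12 listed was 59283 to 59508 in Cxcr5-Bcl6-, 63870 to 64037 in Cxcr5+Bcl6- and 65001 to 67742 in Cxcr5+Bcl6+ cells. Markers of dendritic cells fell at the step from Cxcr5-Bcl6- to Cxcr5+Bcl6- cells, as did Ccl5, Xcl1 and Cxcl9. At that step 5.93% of all probe sets were called lower and 5.22% higher. Of 7 measured plasmacytoid dendritic cell markers of 8 listed, 7 were lower in Cxcr5+Bcl6- cells against those without Cxcr5. Their summed level was 7939 to 8273 in Cxcr5-Bcl6-, 2860 to 2864 in Cxcr5+Bcl6- and 1878 to 2080 in Cxcr5+Bcl6+ cells. In Cxcr5+Bcl6+ cells Siglech, Ccr9 and Pld4 of that list were at or under the 95th percentile of the receptor genes. Ly6d, Tcf4, Cox6a2 and Bst2 lay above it there. The 10 conventional dendritic cell markers summed to 7761 to 8156, 4780 to 4959 and 5003 to 5094 in the same order, with 7 of 10 lower at the first step. Cd83, the brightest of them, changed little, with log2 means of 11.73, 11.67 and 11.77, and holds a large part of each sum. Of 10, Clec9a and Clec10a were at or under that percentile in Cxcr5-Bcl6- cells and Itgax, Flt3 and Cd209d joined them in Cxcr5+Bcl6- cells. The 13 measured monocyte and macrophage markers of 14 summed to 4958 to 4976, 3039 to 3040 and 2909 to 3147, with 4 called lower and 1 higher at the first step. Csf1r, Adgre1, Cd14, Itgam, C1qc and Marco stood at or under the percentile in every group. Mpeg1 of that list fell at both steps, at 10.05 and 9.99, 7.91 and 7.95, and 6.29 and 6.49. Tyrobp and Fcer1g were likewise called lower at both, whereas Lyz2 was higher by 1.11 at the first step (adjusted p = 0.000123). Cd68, the brightest of the list, read 10.16 and 10.24, 9.79 and 9.75, and 10.03 and 10.22, so it did not fall at the second step. Between the Cxcr5+ groups 3 of 13 were called lower and 2 higher, against 13.0% and 13.4% of all probe sets.

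Ccl5, Xcl1 and Cxcl9, which were lower in Cxcr5+Bcl6- cells against those without Cxcr5, fell at the step where the dendritic cell markers and Mpeg1, Tyrobp and Fcer1g fell, and the part of those cells in these values was not tested. Between the Cxcr5+ groups, where all 7 chemokines fell, 6 of 7 plasmacytoid markers were lower with a median of -0.61. Of conventional dendritic cell markers 2 of 10 were lower there, near the 13.0% of all probe sets, and their median change was -0.01. Killer T cells also make Ccl5 and Xcl1, and CD8 T cell markers were lower in 3 of 3 cases against Cxcr5-Bcl6- cells in both Cxcr5+ groups, and 1 of 3, Crtam, was lower between the Cxcr5+ groups. Their summed level was 2361 to 2507 in Cxcr5-Bcl6-, 1663 to 1736 in Cxcr5+Bcl6- and 822 to 859 in Cxcr5+Bcl6+ cells, and Cd8a was at or under the receptor percentile in Cxcr5+Bcl6+ cells. Between the Cxcr5+ groups the sum fell mainly through Crtam, with means of 10.06 and 8.07. Cd8a (7.47 and 7.34) and Cd8b1 (8.83 and 8.68) moved little there and were not called. Of 7 measured NK cell markers of 8 listed, 6 stood at or under that percentile in Cxcr5-Bcl6- cells and 7 in Cxcr5+Bcl6+ cells, the exception in Cxcr5-Bcl6- cells being Eomes. Their sum was 973 to 1011, 837 to 890 and 728 to 773 from Cxcr5-Bcl6- to Cxcr5+Bcl6+ cells. B cell markers summed to 1902 to 1947, 2671 to 2774 and 3716 to 3802 over 9 measured of 10 listed. Against Cxcr5-Bcl6- cells, 6 and 7 of the B cell markers were higher in Cxcr5+Bcl6- and Cxcr5+Bcl6+ cells, where 5.22% and 17.6% of all probe sets were. Ighm was lower in both, and 4 of 9 lay at or under the receptor percentile in Cxcr5+Bcl6+ cells. The 9 stromal and endothelial markers summed to 2735 to 2835, 3501 to 3508 and 4124 to 4200, and the 1 called, Pecam1, was higher in each of the 3 comparisons. Their part in the results was not tested either.

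Receptors for these chemokines were described for 7 genes of 8 listed. Ccr8, the receptor of Ccl1, which regulatory and type 2 helper T cells are known to carry, was at 12.50 and 12.56 in Cxcr5-Bcl6-, 12.25 and 12.33 in Cxcr5+Bcl6- and 9.29 and 9.61 in Cxcr5+Bcl6+ cells. It fell beside its ligand between the Cxcr5+ groups (log2 change -2.84, SE 0.111, adjusted p = 1.94e-08), but was not called between the groups without the reporter (-0.24, adjusted p = 0.231), where Ccl1 rose. Cxcr3, the receptor of Cxcl9 and Cxcl10 on type 1 effector cells, was at 10.61 and 10.47, 11.43 and 11.48, and 10.75 and 10.78 in the same order of groups. It was highest in Cxcr5+Bcl6- cells, by 0.91 over Cxcr5-Bcl6- cells (SE 0.0907, adjusted p = 6.6e-05) and by 0.69 over Cxcr5+Bcl6+ cells (log2 change -0.69, SE 0.0907, adjusted p = 0.000211), and the outer groups did not differ at the threshold (adjusted p = 0.0751). Ccr3 was called lower in Cxcr5+Bcl6+ cells against Cxcr5-Bcl6- cells (-0.45, adjusted p = 0.0053), at levels of 6.5 to 7.14 under the receptor percentile in every group. Ccr1 (4.81 to 5.15), Xcr1 (6.70 to 7.02) and the scavenging receptors Ackr1 (5.91 to 6.15) and Ackr2 (7.28 to 7.68) were not called in any comparison. The means of Ccr1, Xcr1 and Ackr1 were at or under the receptor percentile in every group. That of Ackr2 was so in all but Cxcr5+Bcl6- cells.

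Beyond the 7, 28 other chemokine ligands were measured. In Cxcr5+Bcl6+ against Cxcr5-Bcl6- cells, 5 of 28 were lower and 1 higher (median 0.01, all genes 0.04), a share of lower genes near the 17.7% of all probe sets. Between the groups without the reporter 3 were lower and none was higher (median -0.04, all genes -0.03), against 5.93% and 5.22% of all probe sets. Between the Cxcr5+ groups 3 were lower and 2 higher (median 0.06, all genes 0.06). The shares of all probe sets there were 13.0% and 13.4%, so these counts are near or under the background. Ccl22, made by mature dendritic cells and by some activated T cells, was at 11.33 and 11.42 in Cxcr5-Bcl6-, 8.37 on both Cxcr5+Bcl6- arrays and 7.48 and 7.31 in Cxcr5+Bcl6+ cells. Its steps were -3.0 and -0.97 (adjusted p = 5.11e-08 and adjusted p = 1.95e-05). Ccl17, which shares the receptor Ccr4 with Ccl22, had steps of -0.83 and -1.37 (adjusted p = 0.000218 and adjusted p = 1.56e-06). In Cxcr5+Bcl6+ cells Ccl22 and Ccl17 lay at or under the receptor percentile, so their second steps are measured against dim levels. Ccl20, the ligand of Ccr6 made by type 17 helper cells, was not called between the groups without the reporter (0.47, adjusted p = 0.093) and fell between the Cxcr5+ groups (-1.73, SE 0.16, adjusted p = 1.39e-05). Cxcl16, a membrane-bound ligand of Cxcr6, was called at the first step (-0.71, adjusted p = 0.000565), but it lay at or under the receptor percentile in all 3 groups, so no course is read from it. Ccl19, which guides T cells in lymph nodes, was higher by 0.51 against Cxcr5-Bcl6- cells (adjusted p = 0.00455) and 0.48 against Cxcr5+Bcl6- cells (adjusted p = 0.0102), from the brightest of 5 probe sets with this name, so near-identical copies of the gene may share its signal. Cxcl2 was lower at -0.25 (adjusted p = 0.0431) in Cxcr5+Bcl6+ cells against Cxcr5-Bcl6- cells and Ccl2 higher at 0.31 (adjusted p = 0.0495) between the Cxcr5+ groups, with all their arrays between 6.44 and 7.14, under the receptor percentile. The receptor genes themselves had median changes of 0.22 against Cxcr5-Bcl6- cells (417 called higher, 1 lower) and 0.30 between the Cxcr5+ groups (564 higher, 0 lower). The rises of Ccl2 and Ccl19 were not separated from this shift.

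Of 17 factors known to drive or restrain chemokine transcription, 15 were measured. In Cxcr5+Bcl6+ against Cxcr5-Bcl6- cells, 10 of 15 were lower and 2 higher (median -0.89, all genes 0.04). Between the groups without the reporter 4 were lower and 2 higher (median -0.20, all genes -0.03), and between the Cxcr5+ groups 9 were lower and 2 higher (median -0.39, all genes 0.06). The shares of all probe sets called lower and higher were 17.7% and 17.6%, 5.93% and 5.22%, and 13.0% and 13.4% in these comparisons, so 2 of 15 higher is near the background in the first and last. Ifng, the interferon gamma gene, ran 11.60 and 11.67, 12.80 and 12.82, and 7.50 on both arrays from Cxcr5-Bcl6- through Cxcr5+Bcl6- to Cxcr5+Bcl6+ cells. Like Ccl1 it was highest in Cxcr5+Bcl6- cells, by 1.17 over Cxcr5-Bcl6- cells (SE 0.0862, adjusted p = 9.26e-06), and fell by 5.31 on the log2 scale between the Cxcr5+ groups (adjusted p = 2.23e-11). In Cxcr5+Bcl6+ cells Ifng, Prdm1 and Eomes lay at or under the 95th percentile of the receptor genes, so their falls to that group are measured against dim levels. Tbx21, which encodes the type 1 regulator T-bet, was lower at the first step (log2 change -0.33, adjusted p = 0.0287) and fell by 3.47 between the Cxcr5+ groups (adjusted p = 6.18e-10). The repressor gene Prdm1 had steps of 0.21 and -2.33 (adjusted p = 0.293 and adjusted p = 6.07e-08), and the interferon response factor gene Irf1 of -0.23 and -1.37 (adjusted p = 0.158 and adjusted p = 9.96e-07). A dimmer Irf1 probe set (10385870) fell less, with means of 8.90, 8.60 and 8.13 in the same order of groups. Irf8, also high in plasmacytoid dendritic cells, had steps of -0.66 and -2.09 (adjusted p = 0.000521 and adjusted p = 3.18e-08). Eomes, a T-box factor of killer cells, fell at both steps (-0.94 and -0.48, adjusted p = 5.65e-05 and adjusted p = 0.00241), as did Ifngr2, a chain of the interferon gamma receptor (-0.50 and -0.39, adjusted p = 0.00935 and adjusted p = 0.0181). Bcl6, one of the sort markers and therefore a check of the labels, was at 10.31 on both Cxcr5-Bcl6- arrays, 10.55 and 10.56 in Cxcr5+Bcl6- and 11.45 and 11.55 in Cxcr5+Bcl6+ cells. Besides Bcl6, the factor higher in Cxcr5+Bcl6+ cells was Nfatc2 (0.84 against Cxcr5-Bcl6- cells, adjusted p = 5.13e-05).

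**Figure D3:**
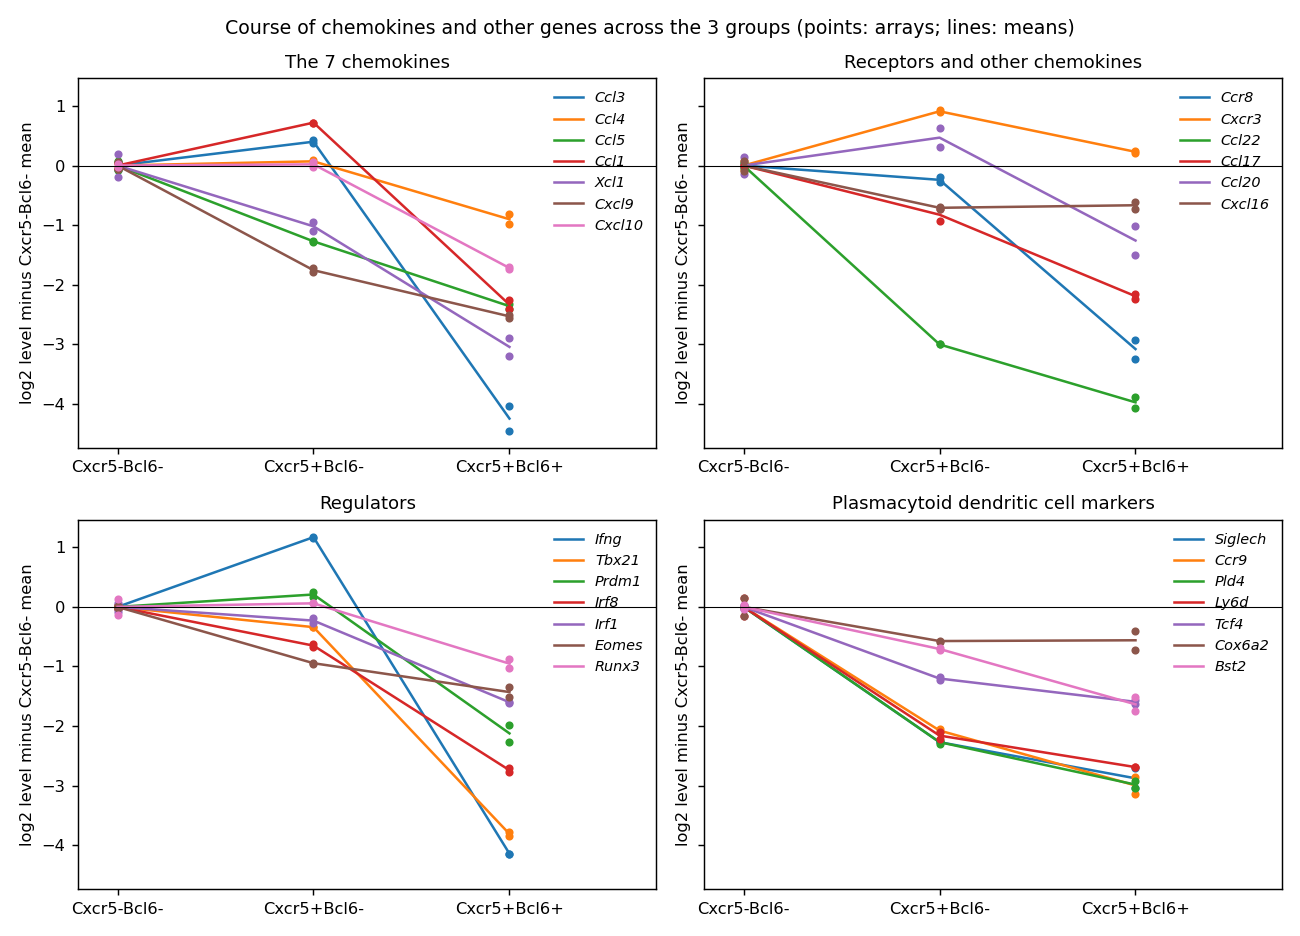
Log2 level minus the Cxcr5-Bcl6- mean (vertical axis) in the 3 groups (horizontal axis), for the 7 chemokines, their receptors and other chemokines, regulators, and plasmacytoid dendritic cell markers; points are arrays and lines join group means. Ccl1 and Ifng rise by 0.72 and 1.17 to Cxcr5+Bcl6- cells before they fall, whereas Cxcl9, Ccl22 and Siglech drop by 1.76, 3.0 and 2.27 at that first step.

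For each chemokine the genes with the most similar course were found among 18617 genes, by the root mean square distance (RMS, log2) between levels on the 6 arrays, each gene centred on its own mean. These are descriptions over 6 arrays with no test, and Il10, Itgae, Ifng, Gzmb, Iigp1, Kyat3, Mir17, Tyrobp, Plac8 and Kmo lay at or under the receptor percentile in Cxcr5+Bcl6+ cells. The nearest to Ccl3 was Ifng (RMS 0.361), followed by Gzmb, the gene of granzyme B (0.378), and Iigp1, an interferon-induced GTPase gene (0.399), the widest nearest distance of the 7 chemokines being that from Ccl3 to Ifng. Ccl1 lay near the cytokine genes Il17f (0.147) and Il10 (0.170) and the integrin gene Itgae (0.176). Near Xcl1 lay Lrrc32, the gene of a surface protein of activated regulatory T cells (0.114), Irf8 (0.215) and Atf3 (0.229). For Ccl5 these were Ecm1 (0.137), Lhfp (0.145) and the probe set assigned to the Mir17 gene (0.151). Ccl4, whose measured changes were small, had close company in metabolic genes, with Got1 at 0.0271, Kyat3 at 0.0446 and Hccs at 0.0475. Cxcl9 and Cxcl10 had different company. Cxcl9 lay nearest to Tyrobp (0.0821), the signalling adaptor of myeloid and NK cells, then Plac8 (0.121) and Kmo (0.131). Cxcl10 lay nearest to Lgals3bp (0.0523), Zbp1 (0.0721) and Xaf1 (0.0751), all known as interferon-induced genes. Tyrobp read 10.26 and 10.04 in Cxcr5-Bcl6-, 8.37 and 8.27 in Cxcr5+Bcl6- and 7.72 and 7.65 in Cxcr5+Bcl6+ cells, with the last pair under the receptor percentile, and Zbp1 read 11.61 and 11.56, 11.63 and 11.52, and 9.72 and 9.73 in the same order.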

How the data were processed

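RNA of 6 sorted samples was hybridised to Affymetrix whole-transcript arrays, 1 per sample. The deposited values are log2 probe-set levels that the authors normalised across arrays. GCOS 1.1, RMA and Affymetrix Expression Console are named in the submitters' processing notes, with no order or settings, and the log2 scale was read from the values. Array medians ran from 7.83 to 7.92, and the number of arrays limits the precision. These sources give no genome build and no detection calls.

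Symbols came from the platform annotation, updated through Entrez identifiers for 21698 of 21789 singly named probe sets. Of 35556 rows, 23410 were named (1621 with several symbols, of which none was named in the text) and 12146 were unnamed here. Named probe sets were fitted with limma 3.58.1 in R 4.3.3 (lmFit with group means over all 6 arrays, eBayes, 3 residual and 8.25 prior degrees of freedom, two-sided, Benjamini-Hochberg adjusted p under 0.05, no fold threshold), after the fit was tested on simulated data. Lists used the brightest probe set of a gene. The members and lists were chosen with earlier results of these data known. Text names were the members, their receptors, up to 6 called chemokines and regulators per comparison with the smallest p, and the 3 nearest genes of each member. Cell type markers named individually, Cxcl11, Ccl9 and Ccl6 were picked after their values were seen. Alternatives were eBayes trend or robust options, renewed quantile normalisation, median centring, filters on dim probe sets, every row, the brightest probe set of each gene alone, fitting only the 4 arrays compared, blocking on replicate, and omitting arrays in turn.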

Additional observations from a re-analysis of the deposited data

How the results depend on the processing

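With 2 arrays a group, p-values rest on a spread pooled over genes and groups, and where an array was left out its partner was assumed to vary like the others. All 7 chemokines were called lower in Cxcr5+Bcl6+ cells against either other group under every alternative run. The 3 lower calls between Cxcr5+Bcl6- and Cxcr5-Bcl6- cells also held under each. Chemokines called higher there numbered 1, and 2 (with Ccl3) with an intensity trend, after median centring, with either filter on dim probe sets and in the 4-array fit. Omitting either Cxcr5+Bcl6+ replicate repeats the 4-array fit for this comparison. When another array was left out, the log2 change of Ccl3 lay between 0.34 and 0.47. The filters test fewer probe sets; the cause of the other differences was not tested. Of 441 single values under alternatives, 430 stayed on the same side of the threshold, 7 were gained (Ccl3) and 4 lost (the unequal steps of Xcl1). Called values kept their direction, whereas the uncalled change of Cxcl10 between the groups without the reporter ranged from -0.03 to 0.06. Some of the 441 repeat one another, since omitting an array of the group outside a comparison equals the 4-array fit. With the replicate block, 7, 3 and 7 chemokines were called lower and 0, 1 and 0 higher in the 3 comparisons, as without it. The labels name no pairing of the arrays, and deviations of same-numbered arrays correlated at -0.234, -0.0461 and 0.258. These values can neither show nor exclude a pairing, so nothing is read from the block. Over all probe sets, calls between Cxcr5+Bcl6- and Cxcr5-Bcl6- cells were 2610, against 1579 with all rows tested and 1317 or 1401 without Cxcr5+Bcl6- replicate 1 or 2. Between the Cxcr5+ groups they were 6185, against 3617 or 3820 without those arrays. For unequal steps they were 1928, against 1269 above the median level and 994 or 1013 without those arrays.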
